A study of Homo sapiens with 21 samples.

Results

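HEY cells 48 h after transfection with a control miRNA were compared with HEY cells taken before transfection, at 0 h. HEY is a human ovarian carcinoma cell line. The comparison used the 6 arrays whose titles name synthetic miRNA at T48 (3 arrays) or HEY cells at T0 (3 arrays), of 21 arrays in 7 groups. The remaining groups were the control miRNA at 24 and 144 h and mir-429 (a miRNA of the miR-200 family) at 24, 48 and 144 h, and they are used here only beside the 48 h values. The label synthetic miRNA was taken as the negative control miRNA from Ambion that the study's design names, and its sequence is not given in the sources used here.

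Cells in exponential growth were transfected with Lipofectamine 2000, a cationic lipid that carries nucleic acid across the cell membrane. The untransfected cells received neither lipid nor miRNA. Of the groups used here none was given lipid alone or kept untransfected until 48 h, so the lipid, the miRNA and the time in culture cannot be told apart. Total RNA was amplified and labelled with biotin by a kit that works from the 3' end of transcripts (Applause 3'-Amp) and read on a 54675 probe set Affymetrix array. Replicates are labelled as biological, but how cultures were separated is not stated, so p-values speak only of the spread among these samples, which may be technical.

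As background, NF-kB is a transcription factor held in the cytoplasm by inhibitors of the IkB family. Once released, it raises transcription of chemokines such as CXCL8 and of its own inhibitor NFKBIA. Sterol synthesis runs from acetyl-CoA through mevalonate to cholesterol and is set by the transcription factor SREBP2, which SCAP, the sterol sensor of the endoplasmic reticulum membrane, escorts to its activation. NRF2 turns on genes of glutathione and thioredoxin metabolism after oxidative or electrophilic stress.

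The 48 h arrays had far lower signal at the 5' end of control transcripts than the untransfected arrays. No measure of RNA integrity is given in the sources used here, and whether the RNA, its amplification or its labelling differed was not tested. The 5' probe set of the GAPDH control transcript read 12.02, 12.75 and 12.73 in untransfected cells and 6.12, 6.25 and 7.11 at 48 h (log2 values). The 3' probe set of the same transcript read 13.62 and 13.50 on average. The 3' minus 5' difference of GAPDH was thus 1.13 ± 0.40 (SD, n = 3) in untransfected cells and 7.01 ± 0.53 at 48 h, with no overlap between the groups (p = 0.1 in a two-sided exact permutation test, and no smaller value is possible with 3 arrays against 3). It was 1.58 in control cells at 24 h and 1.28 at 144 h, while the mir-429 arrays at 48 h lay at 7.88. Averaged over GAPDH and ACTB, the difference was 3.15 ± 0.53 in untransfected and 7.83 ± 0.62 in control 48 h arrays. The bioB spike, a bacterial transcript added at hybridisation, rose from 10.20 to 12.04 on average, and it was 12.08 in the mir-429 arrays at 48 h. Low 5' signal and the 48 h time point therefore go together in both arms and cannot be told apart.

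**Figure D1:**
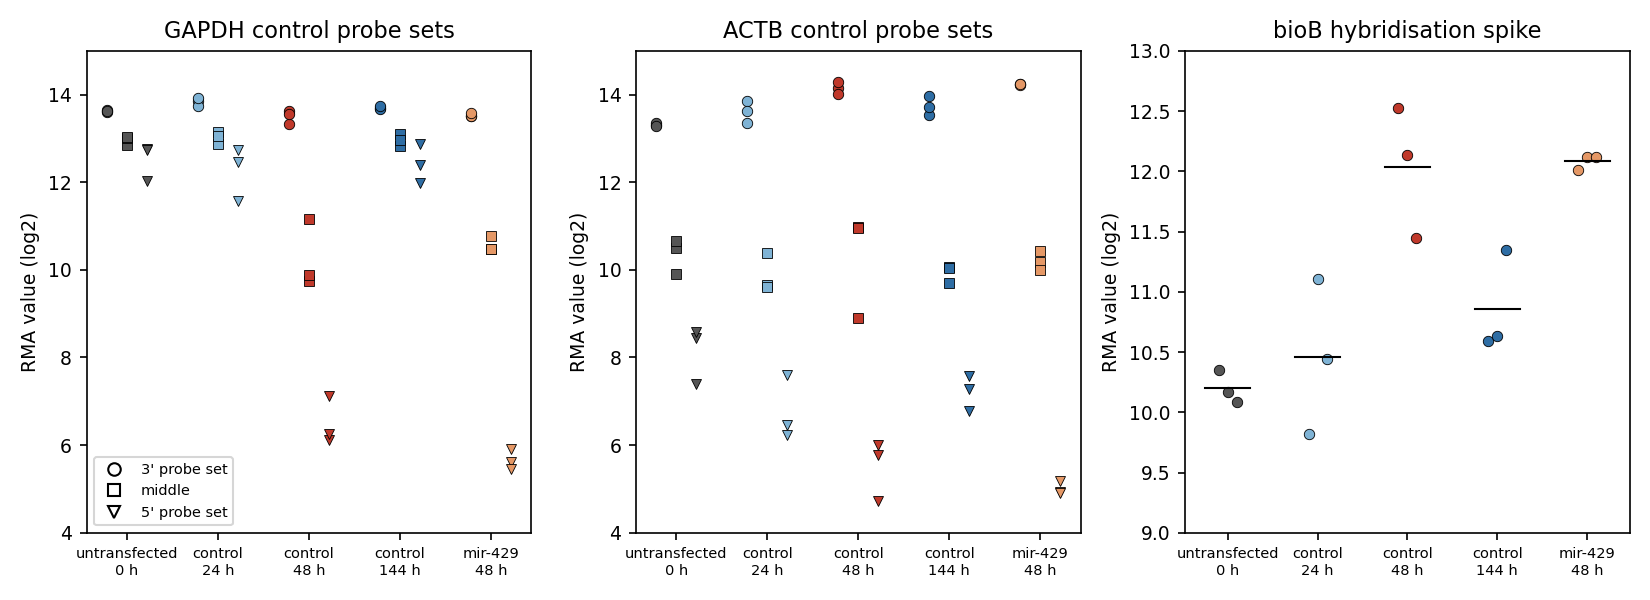
Control probe sets on each array. The left and middle panels plot the log2 RMA value of the 3', middle and 5' probe sets of GAPDH and ACTB, with 3 arrays per group, and the right panel plots the bioB spike with a line at the group mean. The 5' probe sets of GAPDH lie between 6.12 and 7.11 in control 48 h arrays and between 12.02 and 12.75 in untransfected arrays.

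The SD of the difference between pairs of arrays was 0.47 to 0.56 in the control 48 h group and 0.23 to 0.35 in the untransfected group. In the control 24 h group the pairs with replicate 2 gave 0.53 and 0.61, and the pair without it gave 0.27. The mir-429 arrays at 48 h gave 0.39 to 0.41. At 48 h every pair in both arms was thus wider than any untransfected pair. Each gene's standard error (SE) came from 1 spread shared by the 7 groups. Fitted on the 6 compared arrays alone, 5898 genes were called rather than the 7022 given next.

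A gene was represented by its brightest probe set, and 12879 genes lay above the array median on at least 3 arrays and were tested. By limma with Benjamini-Hochberg adjustment at 0.05, 7022 genes (54.5%) differed between control 48 h and untransfected cells. Of these, 2376 (18.4%) were higher and 4646 (36.1%) were lower. In 7536 genes (58.5%) the values of the 3 and 3 arrays did not overlap. Apart from a few genes that were always named, genes picked by the naming rule had to meet this condition. Where it is stated for them below, it describes the values and is no further support. At least 2-fold differences numbered 489 higher (3.80%) and 1370 lower (10.6%). In bulk RNA, fewer cells that express a gene and less RNA of that gene per cell cannot be told apart. The balance of rises and falls depended on scaling. The median of all genes lay at -0.16 (log2) in the deposited values, and rises made up 33.8% of calls. They made up 39.9% after quantile scaling (2716 higher, 4091 lower), 43.1% after cyclic loess (2957 and 3901) and 47.7% after each array's median was subtracted (3130 and 3432). Changes below are as measured and are to be read against that median.

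Because 5' signal was low, weight was placed on genes whose probe sets moved in the same direction. Of the 6642 genes with at least 2 probe sets past the filter, 676 were called higher with every probe set up (10.2%) and 1354 were called lower with every probe set down (20.4%). Among called genes with several probe sets, 48.1% of the rises and 54.2% of the falls had agreeing probe sets, beside 43% of the genes not called. Probe sets of 1 gene differed more at 48 h than at the other times. The range between the highest and lowest change had a median of 0.84 at 48 h, of 0.50 at 24 h and of 0.26 at 144 h, and of 0.87 in mir-429 arrays at 48 h, each against untransfected cells. GAPDH shows the pattern in 1 gene, since its 6 probe sets changed by -0.13 at the brightest and by -6.01 at the lowest. All 6 fell, so a fall at every probe set cannot be told apart from low 5' signal by agreement alone. The probe sets of ACTB moved both ways, with 4 of its 6 up. Its 3' control probe set changed by 0.84 and its 5' one by -2.64. Whether agreeing rises depend on where the probe sets lie in the transcript was not tested.

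**Figure D2:**
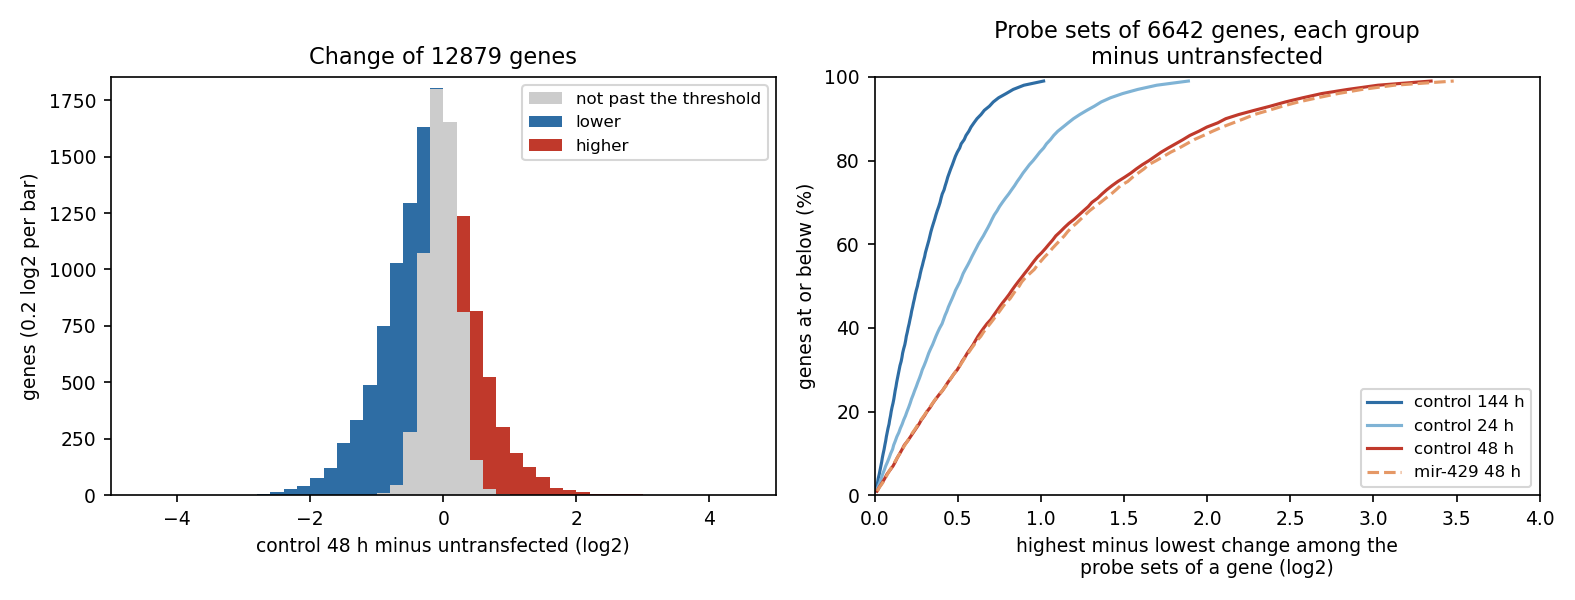
Left, number of genes by change in control 48 h minus untransfected cells (log2, bars of 0.2), with genes past the threshold in blue (lower) and red (higher). Right, cumulative percentage of 6642 genes by the range between their probe sets. The control 48 h and mir-429 48 h lines lie together, with medians of 0.84 and 0.87, to the right of 24 h (0.50) and 144 h (0.26).

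The 3' minus 5' difference was also entered as a covariate, which is estimated only from differences within groups. The calls against untransfected cells then fell from 7022 to 76 (45 higher, 31 lower), and those with agreeing probe sets fell from 2030 to 33. The median size of the change in the 7022 genes was 0.71 without and 0.74 with the covariate, 5849 kept their sign, and the median SE rose from 0.15 to 0.57. The part of low 5' signal in each change below was not tested further.

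The 12 largest agreeing rises came from varied functions. HNRNPL, a splicing regulator that binds CA-rich RNA, read 7.53, 7.34 and 7.47 in untransfected cells and 10.71, 11.21 and 11.45 at 48 h. Every 48 h array lay far above every untransfected array, and both probe sets rose (3.68 ± 0.19, SE; limma adjusted p = 5.7e-10). AKIRIN2, a nuclear protein that carries proteasomes into the nucleus, read 7.24, 7.13 and 7.34 and then 9.94, 10.46 and 10.64. The groups did not overlap, and its 3 probe sets rose by 0.83 to 3.11. Both genes stood close to the untransfected level at 24 h (7.10 and 7.17) and at 144 h (7.38 and 7.33). The mir-429 arrays of 48 h averaged 11.14 and 10.38.

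SPP1, which encodes the secreted phosphoprotein osteopontin, behaved differently over time. It read 7.07, 7.38 and 7.23 in untransfected cells and 9.80, 10.49 and 10.07 at 48 h, again without overlap. The rise was 2.89 ± 0.15 (limma adjusted p = 5.7e-10), its probe sets gave 2.50 and 2.89, and the group mean was already 9.16 at 24 h and back at 7.07 at 144 h. In the mir-429 arrays at 48 h SPP1 averaged 9.09, which was 1.03 below the control arrays of that time (limma adjusted p = 1e-04).

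PRKCE, the epsilon isoform of protein kinase C, rose from 6.44, 6.74 and 6.65 to 8.30, 9.35 and 9.16. The change was 2.33 ± 0.21 (limma adjusted p = 1.19e-07), with 3 probe sets between 0.66 and 2.33. FBXO30, an F-box protein of a ubiquitin ligase, rose by 2.38 ± 0.24, SAFB2, a nuclear scaffold attachment protein, by 2.65 ± 0.15, and KLHL20, a substrate adaptor of a cullin ubiquitin ligase, by 2.26 ± 0.27. SIKE1, a suppressor of the kinases IKBKE and TBK1, rose by 2.48 ± 0.31, and its 5 probe sets ranged from 0.35 to 2.48. PPP4R3A, a regulatory subunit of protein phosphatase 4, rose by 2.85 ± 0.47. FAM111B, a trypsin-like protease, rose by 2.81 ± 0.49 and TLNRD1, an actin-bundling protein, by 2.39 ± 0.21. ZBED6, a zinc finger transcription factor, averaged 3.87 in untransfected cells, below the array medians, so its rise is a bound of at least 2.44.

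The 12 largest agreeing falls were led by CASKIN1, a neuronal scaffold protein that binds CASK. It read 9.36, 9.56 and 9.65 in untransfected cells and 5.28, 5.72 and 6.80 at 48 h. The groups did not overlap and the spread was wider at 48 h, with a change of -3.59 ± 0.29 (limma adjusted p = 2.69e-08) and a second probe set at -0.42. GPR4, a receptor that senses protons, fell from 10.53, 10.35 and 10.30 to 7.13, 6.69 and 7.61. Its second probe set moved far less, by -0.55 against -3.25. CTIF, which takes part in translation of newly exported mRNA, fell from 8.42, 8.55 and 8.74 to 5.44, 5.03 and 5.76, and its probe sets gave -3.16 and -1.04.

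FGF1, a growth factor that binds all FGF receptors, read 8.58, 8.38 and 8.52 in untransfected cells and 5.44, 6.04 and 6.51 at 48 h. All 3 probe sets fell, by 0.48 to 2.50 on the log2 scale (limma adjusted p = 2.75e-08), and the mean had already reached 7.28 at 24 h and was 8.36 at 144 h. MMP19, a matrix metalloproteinase, changed by -2.57 ± 0.40. One of its 48 h arrays lay apart, at 2.68 beside 5.18 and 4.74. DNAJC18, a membrane co-chaperone, changed by -2.50 ± 0.21, BORCS5, a subunit of the lysosome-positioning complex BORC, by -2.65 ± 0.19 with a second probe set at only -0.06, and SIRPB1, a signal-regulatory receptor, by -2.49 ± 0.31. The antisense transcript POLR1HASP, GPX3 (a secreted glutathione peroxidase), CYBA (a subunit of NADPH oxidase) and AIF1L (an actin-binding protein) averaged below the array medians at 48 h. Their falls at the brightest probe set are therefore bounds, of at least 1.92, 1.30, 2.09 and 1.31 on the log2 scale. The second probe sets of these genes gave -0.26, -1.28, -0.90 and -0.19. With the 3' minus 5' covariate CYBA changed sign, to 1.13, and did not pass.

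The mir-429 arrays share the low 5' signal and the time point with the control 48 h arrays but not the miRNA. Against untransfected cells 7296 genes (56.7%) were called in them, 2460 higher (19.1%) and 4836 lower (37.5%). Between mir-429 and control arrays at 48 h, limma called 20.6% of all tested genes, and 4 of these 24 genes (SPP1, FBXO30, GPR4 and SIRPB1). The remaining 20 did not pass, which does not show that they were equal. This contrast and the one against untransfected cells both use the control 48 h arrays. With the 3' minus 5' covariate, HNRNPL, AKIRIN2, SPP1, PRKCE and FBXO30 stayed past the threshold, and none of the 12 falls did.

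The chemokine and cytokine genes held the largest share of rises among the lists with at least 10 tested members. Of 32 genes in the list, 18 were tested. Of those 18, 10 were higher (55.6%, beside 18.4% over all genes) and 5 were lower (27.8%, beside 36.1%). The median change was 0.45 beside -0.16 over all genes. The CXC chemokines CXCL1, CXCL2, CXCL3 and CXCL8, which draw neutrophils through the receptor CXCR2, all rose. Members outside CXCL1, CXCL2, CXCL3, CXCL8, NFKBIA, NFKBIZ, TNIP2, IKBKB and IL1B in this and the following NF-kB account were picked after their values were seen.

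The promoter sequences of CXCL8, CXCL1, CXCL2, CXCL3 and NFKBIA are shown because these 5 of the genes that rose share a sequence that NF-kB is known to bind. Each run is the 150 bases before the gene's start in RefSeq (GRCh38.p14), read 5' to 3' on the strand of the gene, with the match to GGAATTTCC or its reverse complement GGAAATTCC in capitals. The positions are chr4:73740419-73740568 (plus strand) for CXCL8, chr4:73869243-73869392 (plus) for CXCL1, chr4:74099196-74099345 (minus) for CXCL2, chr4:74038690-74038839 (minus) for CXCL3 and chr14:35404750-35404899 (minus) for NFKBIA.
CXCL8: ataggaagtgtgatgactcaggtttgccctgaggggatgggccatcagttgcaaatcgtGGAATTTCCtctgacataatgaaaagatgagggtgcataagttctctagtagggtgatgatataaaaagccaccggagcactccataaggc
CXCL1: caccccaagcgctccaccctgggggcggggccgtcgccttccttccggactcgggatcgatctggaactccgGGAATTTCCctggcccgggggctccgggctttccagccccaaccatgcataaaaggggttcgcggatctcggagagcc
CXCL2: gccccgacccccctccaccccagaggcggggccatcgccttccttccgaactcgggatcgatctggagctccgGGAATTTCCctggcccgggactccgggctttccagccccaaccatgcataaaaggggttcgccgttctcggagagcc
CXCL3: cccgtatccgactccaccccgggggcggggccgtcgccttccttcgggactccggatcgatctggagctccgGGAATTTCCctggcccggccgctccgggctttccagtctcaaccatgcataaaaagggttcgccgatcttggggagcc
NFKBIA: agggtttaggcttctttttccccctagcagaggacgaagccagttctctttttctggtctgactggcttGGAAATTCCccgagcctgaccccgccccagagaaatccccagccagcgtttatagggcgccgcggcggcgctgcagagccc

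Searched on both strands, this motif of 9 letters lay in 71 of 27305 such RefSeq windows (0.26%). It began 91 bases before the start of CXCL8, and 78, 77, 78 and 81 bases before the starts of CXCL1, CXCL2, CXCL3 and NFKBIA. CXCL1, CXCL2 and CXCL3 are close copies of each other, so their matches are not independent. These letters were not in the windows of IL6, NFKBIZ, CCL20, IRAK2 or TRAF1. Only these exact letters were searched, so other forms of an NF-kB site in those windows were not looked for. The genes and the motif were chosen after the expression values were seen, and a match is a description of the sequence.

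CXCL8, the chemokine also called interleukin 8, read 9.23, 9.54 and 9.45 in untransfected cells and 11.31, 11.64 and 11.36 at 48 h. All 48 h arrays lay above all untransfected arrays. The rise was 2.03 ± 0.15 (limma adjusted p = 1.51e-08), and its second probe set gave 1.14. CXCL8 stood at 9.33 in control cells at 24 h and at 8.62 at 144 h, where it lay 0.79 below the untransfected level (limma adjusted p = 0.0215; 0.474% of genes were called in that comparison). With the 3' minus 5' covariate its change was 2.87 ± 0.58 and stayed past the threshold.

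CXCL1, with a single probe set, read 9.50, 9.67 and 9.66 and then 11.54, 11.67 and 11.51. The groups were well apart, and the rise was 1.96 ± 0.12 (limma adjusted p = 2.97e-09). Unlike CXCL8, CXCL1 was already higher at 24 h, by 1.08 (limma adjusted p = 5.23e-06; 38.0% of genes were called at 24 h), and it was back at 9.57 at 144 h. CXCL3, also a single probe set, rose from 7.50, 7.77 and 7.55 to 9.22, 9.40 and 9.16 (1.65 ± 0.16), after 8.45 at 24 h. CXCL2 rose from 9.16, 9.26 and 9.34 to 10.38, 10.19 and 10.35. Its probe sets gave 1.06 and 1.79, and its 24 h mean of 10.01 did not differ from 48 h past the threshold (0.30, limma adjusted p = 0.115; 60.6% of genes were called between these times). With the covariate CXCL1, CXCL3 and CXCL2 changed by 2.02 ± 0.50, 1.55 ± 0.66 and 0.73 ± 0.65, and none passed.

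IL6, the interleukin that acts through gp130, had a single probe set. It read 6.73, 6.71 and 6.75 in untransfected cells and 7.96, 8.53 and 8.44 at 48 h. The rise was 1.58 ± 0.17 (limma adjusted p = 9.35e-07), and the 24 h mean was 6.33, which did not pass against untransfected cells. CCL20, a ligand of CCR6, was lower at 24 h by 1.17 and higher at 48 h by 1.30 ± 0.23. IL1B moved the other way. It read 9.27, 9.30 and 9.47 and then 7.93, 8.22 and 8.24, with both probe sets down (-1.22 ± 0.13; limma adjusted p = 6.15e-07), and it was lower still at 24 h (7.43).

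**Figure D3:**
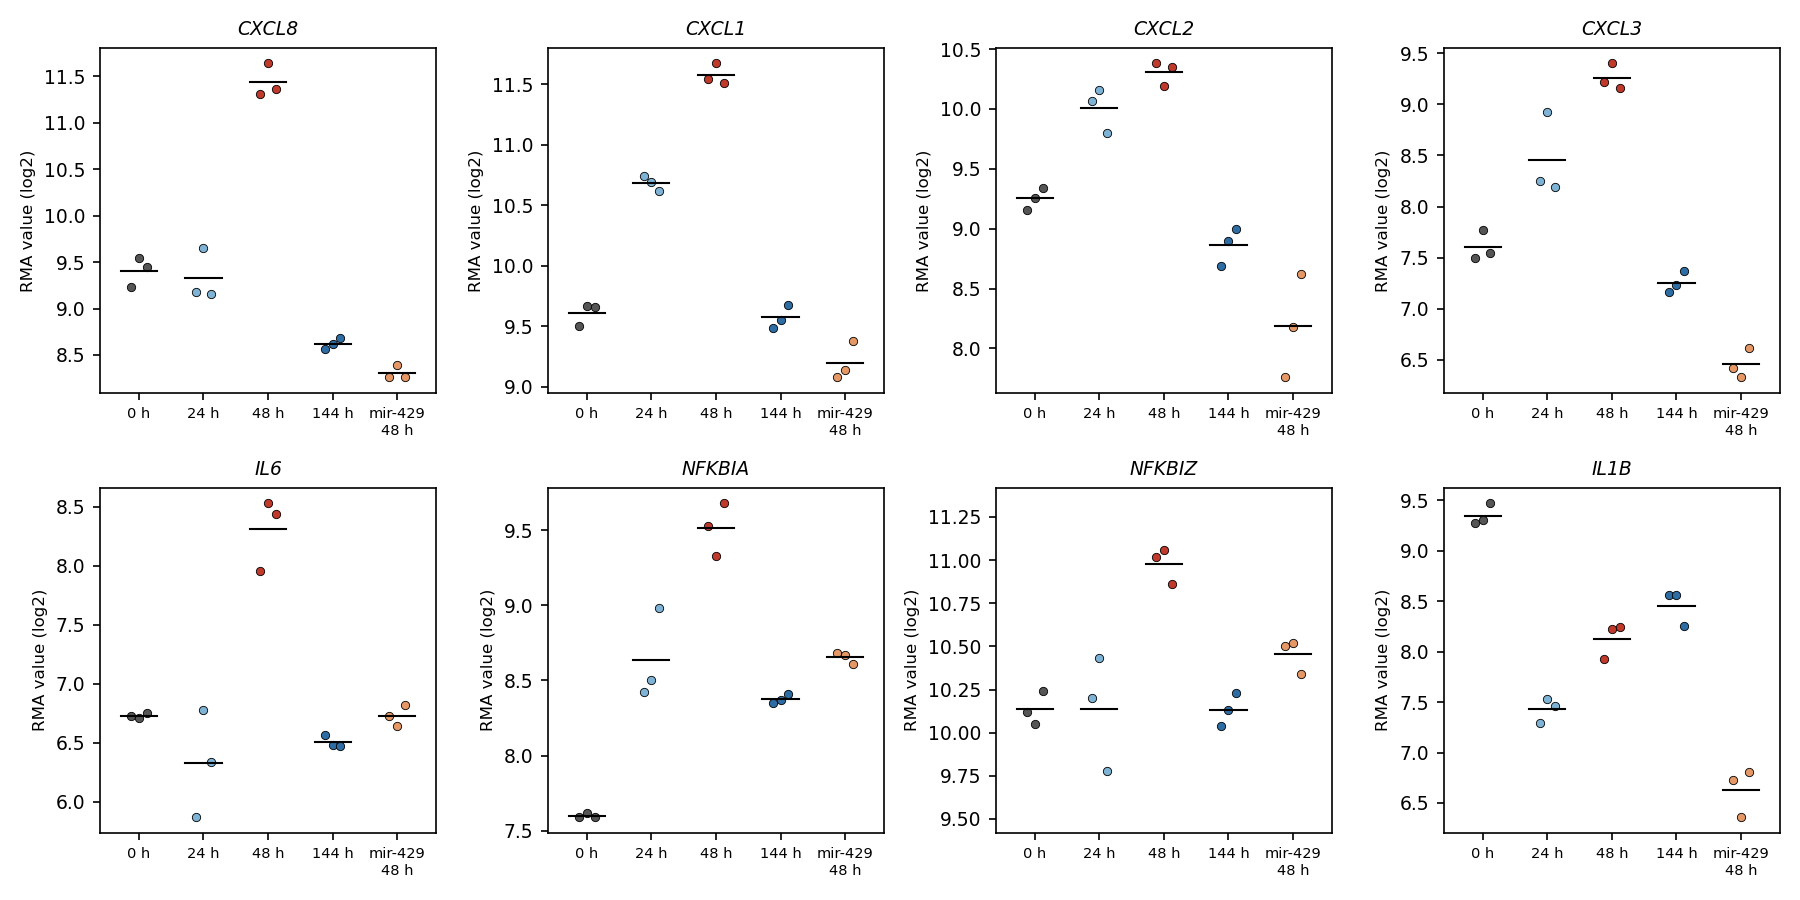
Log2 RMA values of 8 chemokine and NF-kB genes on each array of untransfected (0 h), control miRNA (24, 48 and 144 h) and mir-429 (48 h) cells. Points are arrays, 3 per group, and lines are group means. CXCL8 lies between 11.31 and 11.64 in control 48 h arrays and averages 8.30 in mir-429 arrays of the same time.

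In the mir-429 arm at 48 h these chemokines were lower than in the control arm of that time. The arms differ in the miRNA given, and the part of low 5' signal in either arm was not tested. CXCL8 averaged 8.30 in mir-429 arrays, which was 3.13 below the control arrays (limma adjusted p = 1.37e-10). CXCL1 was lower by 2.37, CXCL2 by 2.12, CXCL3 by 2.80 and IL6 by 1.58, each past the threshold. CCL20 differed by -0.27 and did not pass. In the whole list, 7 of the 18 tested genes were lower and 1 higher in mir-429 than in control arrays at 48 h, beside 11.3% lower and 9.32% higher over all genes.

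Among 31 tested genes of the NF-kB list (36 listed), 15 were higher (48.4%) and 8 lower (25.8%), with a median of 0.37. Over all genes 18.4% were higher and 36.1% lower. Genes that feed back on the pathway were among the rises. NFKBIA, which encodes IkB-alpha, read 7.59, 7.62 and 7.59 in untransfected cells and 9.53, 9.33 and 9.68 at 48 h. The change of 1.91 ± 0.14 (limma adjusted p = 9.11e-09) compares with 0.26 at its second probe set, and the mean was 8.63 at 24 h and 8.37 at 144 h. NFKBIZ, a nuclear IkB protein needed for transcription of some NF-kB targets, rose by 0.85 ± 0.13, with 1.96 at its second probe set. TNIP2, which binds the A20 deubiquitinase system, rose at 3 probe sets by 0.53 to 0.67.

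Several components of the core pathway fell. IKBKB, the catalytic kinase that marks IkB for degradation, read 9.03, 8.94 and 8.99 and then 8.10, 8.11 and 8.17 (-0.87 ± 0.09; limma adjusted p = 4.96e-07). The groups were clearly apart, though the second probe set gave -0.17. RELA, the p65 subunit, changed by -0.45 ± 0.13, and the scaffold IKBKG by -0.83 at both probe sets. Single probe sets of the adaptor kinase IRAK2 (1.34 ± 0.15) and of NFKB1 (0.82) were higher, while those of TNFAIP2 (-1.55 ± 0.31) and IER3 (-0.87) were lower. TRAF1 averaged below the array medians in untransfected cells, so its rise is at least 1.19.

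Sterol synthesis had the largest share of falls among the lists with at least 10 tested members. Of 26 genes in the list 20 were tested, and 14 were lower (70%) and 1 higher (5%), with a median of -0.80. The shares over all genes were 36.1% lower and 18.4% higher. Of the 11 with several probe sets, 5 were called lower with every probe set down and none higher with every one up. Over all genes with several probe sets the shares were 20.4% and 10.2%. LSS, which closes the sterol ring as lanosterol synthase, read 10.26, 9.71 and 9.86 in untransfected cells and 8.98, 8.73 and 9.01 at 48 h (-1.04 ± 0.15; limma adjusted p = 2.09e-05). The groups did not overlap, and the second probe set gave -1.93.

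MVK, mevalonate kinase, fell from 6.21, 6.21 and 6.14 to 4.99, 4.97 and 5.01. Replicates lay close together in each group, and both probe sets fell (-1.19 ± 0.12 and -0.95). EBP, which isomerises the sterol double bond, read 11.78, 12 and 11.99 and then 10.97, 10.54 and 10.95. All 3 of its probe sets fell, by 1.10 to 5.59. HMGCS1, which makes HMG-CoA, changed by -1.0 ± 0.18 and SC5D, a late desaturase, by -0.56 ± 0.10. Single probe sets of FDPS (-1.18 ± 0.10) and PMVK (-1.92 ± 0.26) fell as well, and NSDHL was the 1 higher member, with probe sets of opposite sign.

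At 24 h 10 of the 20 sterol genes were already lower than in untransfected cells (19.8% of all genes were) and 1 was higher (18.3%), with a median of -0.26 beside 0.04 for all genes. HMGCS1 stood at 10.74 at 24 h and 10.67 at 48 h, whereas LSS fell by a further 0.78 between these times (limma adjusted p = 0.000307). The median of the list was -0.07 at 144 h and -0.86 in mir-429 arrays at 48 h. Fatty acid and lipid genes had 12 of 26 tested members lower at 48 h (46.2%), 2 higher (7.7%) and a median of -0.29. The shares over all genes at 48 h were 36.1% and 18.4%. FASN, fatty acid synthase, read 7.35, 7.46 and 7.65 and then 5.35, 5.47 and 6.42 (-1.74 ± 0.23; limma adjusted p = 6.71e-06). It was also lower at 24 h, at 5.98. With the covariate no sterol gene named here passed, as SEs grew. LSS then changed by -1.78 ± 0.60, MVK by -1.10 ± 0.51, FDPS by -1.09 ± 0.39 and HMGCS1 by -1.0 ± 0.72, while PMVK (-0.50), SC5D (-0.37) and EBP (-0.34) moved less than without it. NSDHL and FASN changed sign (-0.30 and 0.02).

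Genes of the NRF2 and oxidative stress list, which is not made up of NRF2 targets alone, were higher more often than lower. Of 29 tested genes (35 listed) 11 were higher (37.9%) and 6 lower (20.7%), beside 18.4% and 36.1% over all genes. The median was 0.16. Of the 16 with several probe sets, 8 were called higher with every one up and 2 lower with every one down. Over all genes with several probe sets the shares were 10.2% and 20.4%. GSR, glutathione reductase, read 9.61, 9.74 and 9.54 and then 10.53, 10.61 and 10.54 (0.93 ± 0.09; limma adjusted p = 2.98e-07). TXN, thioredoxin, rose from 12.48, 12.55 and 12.52 to 13.03, 13.19 and 13.12, and its probe sets gave 0.58 and 0.60. AKR1C2, a hydroxysteroid dehydrogenase, rose by 1.42 ± 0.22. GCLM, the modifier subunit of the enzyme that starts glutathione synthesis, rose by 0.89 ± 0.14, and NQO1, a quinone reductase, by 0.32 ± 0.08. NFE2L2, which encodes NRF2 itself, rose by 0.89 ± 0.14, with 3 probe sets between 0.38 and 1.12, after a mean of 8.29 at 24 h beside 8.40 in untransfected cells.

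At 24 h 21 of the 29 genes of the NRF2 and oxidative stress list were higher and none lower, with a median of 0.46. Over all genes 18.3% were higher and 19.8% lower at 24 h. At 48 h 20 were lower than at 24 h and 3 were higher, beside 39.7% and 20.9% over all genes. HMOX1, haem oxygenase 1, stood at 6.21 in untransfected cells, 9.91 at 24 h and 7.20 at 48 h. GSTP1, with a single probe set, fell by 2.34 ± 0.22, and SLC7A11, the cystine transporter, was higher at 24 h (10.36) and lower at 48 h (9.02) than in untransfected cells (9.38). AKR1C1 rose by 2.48 ± 0.11 and kept its call with the covariate, but 1 of its 4 probe sets gave -0.17.

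**Figure D4:**
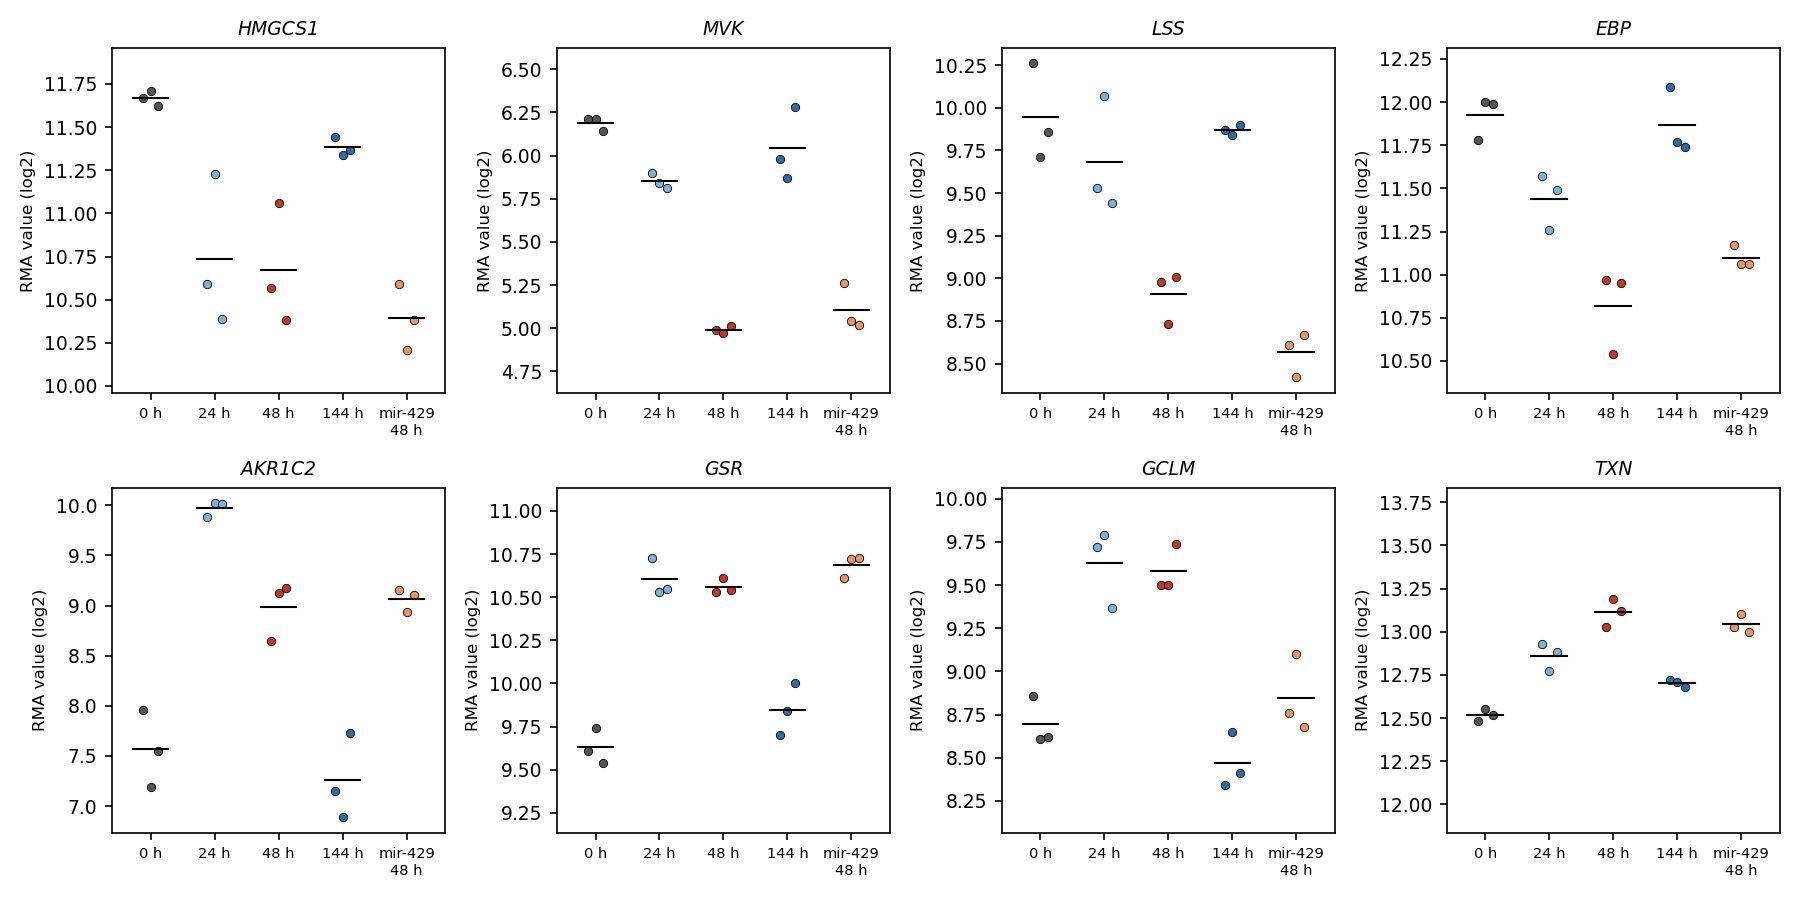
Log2 RMA values of 4 sterol synthesis genes (top) and 4 genes of the NRF2 and oxidative stress list (bottom) on each array, with group means as lines. MVK lies between 4.97 and 5.01 in control 48 h arrays and between 6.14 and 6.21 in untransfected arrays, and GSR averages 10.56 at 48 h beside 9.63.

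Of 47 tested matrix genes (59 listed), 11 were higher (23.4%) and 16 lower (34%), close to the 18.4% and 36.1% over all genes, with a median of -0.14 that turned to 0.01 after subtraction of array medians. FN1, fibronectin, read 11.54, 11.30 and 11.32 and then 12.42, 12.44 and 12.48, and all 7 probe sets rose, by 0.31 to 1.17 (limma adjusted p = 1.09e-06). LOX, which cross-links collagen, rose from 6.95, 7.08 and 7.03 to 8.0, 8.19 and 8.08, with probe sets at 1.04 and 1.07. LAMC1, a laminin chain, rose by 1.12 ± 0.12. These 3 genes were lower in mir-429 than in control arrays at 48 h, by 2.66, 2.73 and 1.05, each past the threshold.

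FBLN1, fibulin 1, fell from 9.53, 9.38 and 9.53 to 7.49, 7.80 and 7.82 (-1.78 ± 0.18; limma adjusted p = 4.37e-07). COL1A1, a collagen chain, changed by -0.79 ± 0.15 at its brightest probe set, and LOXL2, a relative of LOX, by -1.01, with 4 probe sets down. Of 24 tested adhesion genes, 5 were higher (20.8%) and 8 lower (33.3%), near the 18.4% and 36.1% over all genes. ITGA2 and ITGB1, which pair as a collagen receptor, rose at every probe set, by 1.01 to 1.80 and by 0.35 to 2.70, while ITGA1 fell by 1.48 at the brightest.

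Of 16 tested mesenchymal genes 5 were higher (31.2%) and 6 lower (37.5%), beside 18.4% and 36.1% over all genes. VIM, the intermediate filament protein of mesenchymal cells, averaged 13.07 in untransfected cells and 13.23 at 48 h (limma adjusted p = 0.21), and ZEB1, a repressor of epithelial genes, 11.02 and 10.96 (limma adjusted p = 0.723). The sign for ZEB1 turned under several alternatives. CDH1 and EPCAM, the defining epithelial genes, lay below the array median on all 6 arrays. Of 24 tested epithelial genes 12 were lower (50%) and 4 higher, with a median of -0.27. ESRP1, an epithelial splicing factor, read 6.22, 6.47 and 6.36 and then 5.08, 5.33 and 5.30 (-1.11 ± 0.13; limma adjusted p = 2e-06). The claudin CLDN1 rose by 0.81 ± 0.11, with 0.84 at its second probe set. The desmoglein DSG2 rose by 0.78, with 0.43 at its second.

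YAP and TGF-beta response genes had 15 of 36 tested members higher (41.7%) and 11 lower (30.6%), with a median of 0.21. Over all genes 18.4% were higher and 36.1% lower. TGFBR2, the type II TGF-beta receptor, read 10.23, 10.42 and 10.41 and then 11.40, 11.89 and 11.92. The rise of 1.38 ± 0.17 (limma adjusted p = 2.47e-06) stayed past the threshold with the covariate, while its second probe set gave 0.19. WWTR1, the YAP relative TAZ, rose at 3 probe sets by 0.64 to 0.95 and LATS2, a kinase that restrains both, at 3 by 0.35 to 1.54. MYL9, a myosin light chain, fell from 7.43, 7.02 and 6.93 to 4.87, 4.38 and 5.72. Among EGF and FGF genes, 7 of 30 were higher and 10 lower, and TGFA, a ligand of EGFR, rose by 1.31 ± 0.14.

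Among cell cycle genes, those of the G1 and quiescence list fell more often than those of mitosis, a difference that was not tested. That list mixes G1 cyclins with CDK inhibitors and quiescence genes, so its falls have no single direction in the cell cycle. Of 27 tested G1 and quiescence genes, 15 were lower (55.6%, beside 36.1% over all genes) and 4 higher (14.8%, beside 18.4%). The median of these genes was -0.46. CCND2, cyclin D2, read 9.73, 9.87 and 9.89 and then 8.37, 8.34 and 8.35 (-1.48 ± 0.12; limma adjusted p = 2.91e-08), although its second probe set gave only -0.17. YPEL5, a gene of quiescent cells, fell at both probe sets, by 1.05 and 0.70. CCND2 and YPEL5 were already lower at 24 h, at 8.45 and 10.09. RB1 rose by 0.76 ± 0.12, with 1.76 at its second probe set.

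Mitosis genes had 21 of 70 tested members higher (30%, beside 18.4% over all genes) and 17 lower (24.3%, beside 36.1%), with a median of 0.03. At 24 h 3 were higher and 33 lower, with a median of -0.27, beside 18.3% higher and 19.8% lower over all genes. BUB1, a spindle checkpoint kinase, read 9.60, 9.66 and 9.66 and then 10.31, 10.38 and 10.46, with 3 probe sets between 0.74 and 2.25. ANLN, needed for the cleavage furrow, rose by 0.83 ± 0.11. CENPI, a centromere protein, fell at both probe sets by 0.90 and 1.41, and MKI67 averaged 10.23 and 10.12 with probe sets of both signs. Among 58 tested DNA replication genes, 13 were higher (22.4%) and 18 lower (31%) at 48 h, near the 18.4% and 36.1% over all genes. E2F7, a repressor of the E2F family, rose by 1.22 ± 0.19 and MCM7, a subunit of the replicative helicase, fell from 10.82, 10.90 and 10.91 to 9.78, 9.21 and 10.17.

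MYC, picked after its values were seen, had 1 probe set. It read 8.50, 8.68 and 8.77 in untransfected cells and 11.33, 11.96 and 11.80 at 48 h, without overlap. The rise was 3.04 ± 0.21 (limma adjusted p = 6.41e-09), and the means were 8.15 at 24 h, 8.48 at 144 h and 11.23 with mir-429 at 48 h. MYC stayed past the threshold with the covariate. Of 37 tested ribosome biogenesis and MYC response genes, 11 were higher (29.7%) and 9 lower (24.3%), with a median of 0.08. Over all genes 18.4% were higher and 36.1% lower. Immediate early genes had 9 of 25 higher (36%) and 4 lower (16%). None of the 12 with several probe sets was called with probe sets of 1 direction, beside 10.2% higher and 20.4% lower over all such genes. The 4 probe sets of JUN ranged from -1.32 to 1.51.

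The next lists are given beside 36.1% lower and 18.4% higher over all genes. Of 53 tested cytosolic ribosomal protein genes, 20 were lower (37.7%) and 1 higher (1.9%), with a median of -0.12 that became 0.03 after median subtraction. RPL29 fell from 12.65, 13.10 and 13.03 to 10.82, 10.29 and 11.33, and its probe sets gave -2.12 and -2.60. Oxidative phosphorylation had 18 of 58 lower (31%) and 8 higher (13.8%), near the shares over all genes. NDUFA6, a subunit of complex I, read 11.26, 11.34 and 11.25 and then 9.78, 9.80 and 9.66 (-1.54 ± 0.13; limma adjusted p = 4.6e-08). Proteasome genes had 13 of 30 lower (43.3%) and 8 higher (26.7%). The medians of these last lists, -0.06 and -0.03, became 0.09 and 0.11 after median subtraction.

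Of 42 tested lysosome and autophagy genes, 22 were lower (52.4%) and 10 higher (23.8%), with a median of -0.36. Of the 27 with several probe sets, 8 were called lower with every probe set down and none higher with every one up. Over all such genes the shares were 20.4% and 10.2%. GABARAPL1, which conjugates to autophagosome membranes, read 9.74, 9.76 and 9.72 and then 8.30, 8.45 and 8.63, with probe sets at -1.28 and -1.26 (limma adjusted p = 1.2e-06). HEXA, a lysosomal hexosaminidase, was higher at 24 h by 0.65 and lower at 48 h by 1.15 on the log2 scale. The list's median at 24 h was 0.17, and in mir-429 arrays at 48 h it was -0.54.

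The shares of the unfolded protein, heat shock and hypoxia lists lay near those over all genes (18.4% higher, 36.1% lower). In the unfolded protein and amino acid list 11 of 48 were higher (22.9%) and 18 lower (37.5%). The mitochondrial folate enzyme MTHFD2 rose by 1.13 ± 0.10 and CBS, which makes cystathionine, changed by -1.17 ± 0.14 at both probe sets alike. Heat shock genes had 4 of 24 higher (16.7%) and 8 lower (33.3%), and metallothionein and zinc genes 3 of 13 higher and 1 lower. In the hypoxia and glycolysis list 10 of 41 were higher (24.4%) and 17 lower (41.5%). Among p53 targets 10 of 28 moved each way (35.7%). FAS, a death receptor, rose by 0.65 ± 0.10.

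Interferon genes had 7 of 38 tested members higher (18.4%) and 13 lower (34.2%), close to the shares over all genes. GBP1, an interferon-induced GTPase, went from 3.65, 4.11 and 3.75, below the array medians on average, to 4.70, 6.06 and 6.21. That is a rise of at least 1.39 at its brightest probe set, and its 3 probe sets gave 1.18 to 1.82. OAS3 and ISG20 fell at both probe sets. Of 24 tested microRNA machinery and RNA sensor genes 6 were higher and 8 lower. TLR3, a receptor of double-stranded RNA, rose by 0.50 ± 0.16, and lost its call without control 48 h array 3 (0.38) or untransfected array 2 (0.37). MAVS, the adaptor of cytoplasmic RNA sensors, read 9.05, 9.22 and 9.35 and then 8.01, 8.19 and 8.30 (-1.04 ± 0.12; limma adjusted p = 1.8e-06).

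Cell death genes moved often and both ways, with 11 of 30 higher (36.7%) and 13 lower (43.3%), beside 18.4% and 36.1% over all genes. CASP1, the inflammatory caspase, read 7.70, 7.57 and 7.74 and then 8.73, 8.80 and 8.94, and its 5 probe sets rose by 0.44 to 2.03. BID, which links death receptors to mitochondria, rose by 1.29 ± 0.13 at its brightest of 3 rising probe sets, and BAD changed by -1.11 ± 0.22. Of 17 tested histone genes 8 were higher and 5 lower.

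**Figure D5:**
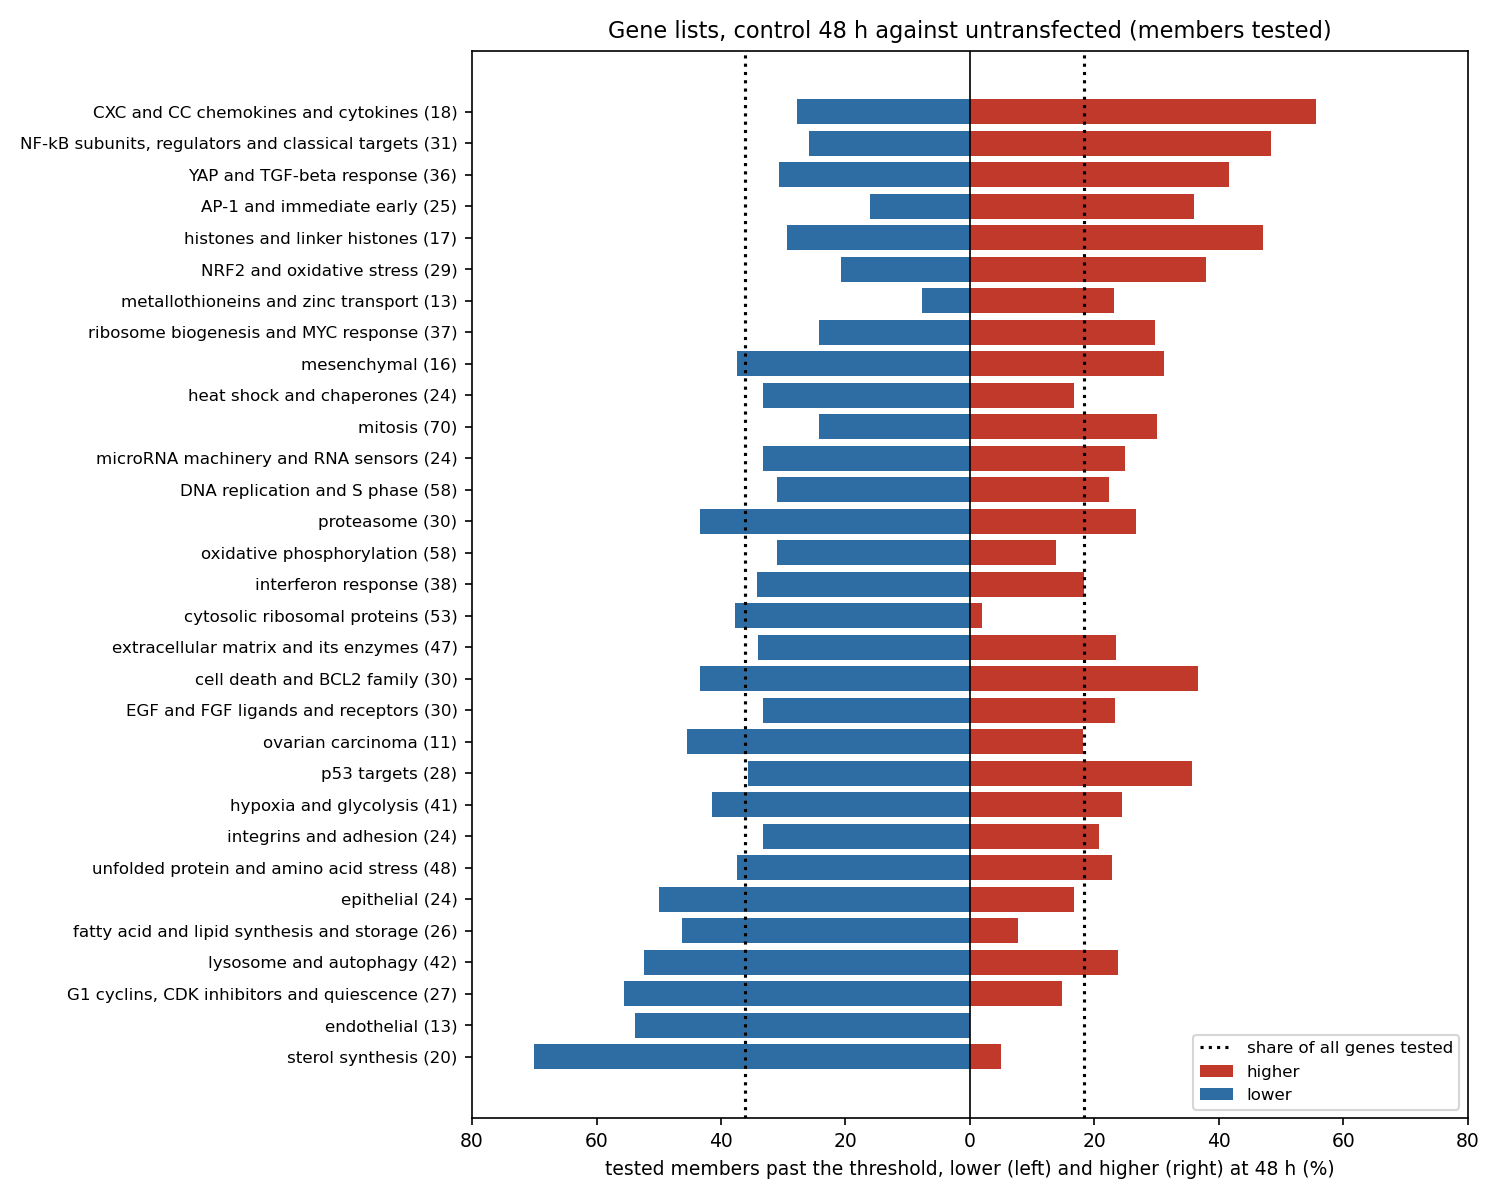
Percentage of tested members past the limma threshold in each gene list, lower to the left and higher to the right, for control 48 h against untransfected cells, with the number tested in brackets. Dotted lines mark 36.1% lower and 18.4% higher over all 12879 genes, and lists are ordered by their median change. Sterol synthesis has 70% lower and the chemokine list 55.6% higher.

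Markers of other cell types were not higher at 48 h. The mean level of 18 leukocyte markers ranged from 3.34 to 3.43 on untransfected and from 3.14 to 3.17 on control 48 h arrays, and 1 to 3 and 1 to 2 of them were above the array median. PTPRC, CD3D, CD3E and CD14 lay below it on all 6 arrays, whereas LAPTM5 lay above it on all 6, at 8.97 and 7.36 on average. For 20 endothelial markers the ranges were 5.68 to 5.80 and 5.33 to 5.50, with 11 to 12 above the array median in both groups. ECSCR (12.34 and 11.71), ROBO4 and CDH5 (9.77 and 8.12) were bright, while VWF and CD34 were not above the median on any of the 6 arrays. The ranges for 15 fibroblast markers were 4.50 to 4.73 and 4.35 to 4.43. Of 16 ovarian carcinoma markers, 10 were above the median on untransfected arrays and 8 to 10 at 48 h, with PAX8 at 11.01 and 10.87.

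The 48 h arrays were also compared with control cells of the earlier and the later time. Against control 24 h, 7809 genes (60.6%) were called, 2691 higher (20.9%) and 5118 lower (39.7%). Against control 144 h, 6980 (54.2%) were called, 2287 higher (17.8%) and 4693 lower (36.4%). By comparison 4897 genes (38.0%) differed between control 24 h and untransfected cells (2352 higher, 18.3%) and 61 (0.474%) between control 144 h and untransfected cells (36 higher, 0.280%, and 25 lower, 0.194%). In 1484 genes (11.5%) the 48 h level was above, and in 3135 (24.3%) below, all of the untransfected, 24 h and 144 h levels past the threshold. These 3 contrasts share the 48 h arrays and their low 5' signal, so the counts are a description. The 6 largest agreeing rises (HNRNPL, AKIRIN2, SPP1, PPP4R3A, ZBED6 and FAM111B) were all of this kind.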

How the data were processed

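Per the submitters' processing notes RMA was used, and the deposited table holds 1 log2 value for each probe set and array. No source used here gives the version, the software or a filter. The values were used unscaled. Probe sets were named from GEO's platform annotation, with symbols updated through Entrez identifiers to RefSeq GRCh38.p14 (99.9% matched). Of 54675 probe sets, 41097 had 1 symbol, 1801 had several and 11777 had none, which gave 19775 genes. Of these, 6896 failed the filter on dim genes. Precision is limited by the number of arrays.

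Groups were compared by lmFit and eBayes of limma 3.58.1 under R 4.3.3 (a mean for each of 7 groups over 21 arrays, two-sided, adjusted by Benjamini-Hochberg over 12879 genes, threshold 0.05), checked on simulated data. Changes are log2 differences ± SE with n = 3 per group. Where a group averaged below its array medians, its values were raised to that median and the change is a bound. Same-numbered replicates did not deviate together (correlations of 0.07, 0.14 and -0.08), so no pairing was assumed. Alternatives covered scaling, filter, probe set rule, arrays in the fit, array weights, replicate number, the 3' minus 5' covariate, the prior and leaving out each array.

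The naming rule picked the 12 top rises and 12 top falls called with agreeing, non-overlapping values. It also picked up to 4 such members of each of 33 lists by p. The 6 largest in each direction that also differed from control 24 and 144 h were added. CXCL1, CXCL2, CXCL3, CXCL8, GAPDH, ACTB, VIM, ZEB1 and MKI67 were always named. Not all of these 137 genes are named in the text, and no rule set which were left out. Other list members in the text were picked after their values were seen. The comparison, the lists and the tests were chosen with earlier results of these data known.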

Additional observations from a re-analysis of the deposited data

Results flagged for a closer look

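Both comparisons of 48 h with the other times of the control arm gave many differences, 7809 genes against 24 h and 6980 against 144 h by limma. Of the 137 genes that the naming rule picked, 14 were called in opposite directions against untransfected cells at 24 and at 48 h. A direct difference between the times past the threshold was a condition of this count. Nearly all of the 137 were picked for a call at 48 h. Over all genes 38.0% were called at 24 h, 54.5% at 48 h and 60.6% between these times. The share of all genes with opposite calls is not given here, so whether 14 is many cannot be told. Higher at 48 h and lower at 24 h were E2F7 (48 h minus 24 h 2.21), LAMC1 (1.49), FN1 (1.39), SPRED1 (1.35), ANLN (1.28), BUB1 (1.26), RB1 (1.25) and CAV1 (0.98). SPRED1, an inhibitor of RAS signalling, lost its call against untransfected cells without untransfected array 1. Lower at 48 h and higher at 24 h were HEXA (-1.79), CPT2 (-1.21), CASP4 (-0.80), FKBP4 (-0.78), PSMB7 (-0.71) and PSMD4 (-0.61). CCL20 (2.47), RELA (-0.92) and SLC7A11 (-1.34), named outside the rule after their values were seen, also had opposite calls at these times. FKBP4 is the least secure of these, since its fall of 0.30 at 48 h was not called under most alternatives.

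Control probe sets outside the gene tests also moved. The 18S ribosomal RNA probe set read 7.40, 9.11 and 9.07 in untransfected cells and 11.49, 10.88 and 11.39 at 48 h, a difference of 2.72. The bioB spike differed by 1.84. Of 5408 tested probe sets without a single gene symbol, 2593 differed at 48 h, 945 higher and 1648 lower. Each is a smaller share than over the tested genes (54.5%, 18.4% higher and 36.1% lower).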

How the results depend on the processing

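The count of called genes kept its size (within 1.5 times of 7022) under every alternative except the covariate, with 5898 on the 6 arrays alone and 6075 to 6873 when 1 array of the compared groups was left out. With the 3' minus 5' covariate it fell to 76, those with agreeing probe sets to 33, those against control 24 and 144 h to 1716 and 535, and those apart from all 3 groups to 72. The covariate's slope comes from small differences within groups and was carried across a gap of 4.68 between groups. Requiring every probe set at an unadjusted p under 0.05 left 1224 agreeing genes, and counting single probe sets gave 5150. With the replicate block (replicate number as a term) 6966 genes were called. With the mean of a gene's probe sets, 221 of the 7022 genes were called in the opposite direction.

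Signs turned as follows. After median subtraction GAPDH changed by 0.02, MKI67 by 0.04 and ZEB1 by 0.08, and list medians were 0.01 (cell death), 0.03 (ribosomal proteins), 0.14 (DNA replication), 0 (EGF and FGF), 0.01 (matrix), 0.03 (interferon), 0.09 (oxidative phosphorylation) and 0.11 (proteasome). After cyclic loess the DNA replication median was 0.09. With the mean of probe sets ACTB changed by -0.03, VIM by -0.09 and ZEB1 by 0.24, and the EGF and FGF and mesenchymal medians were 0.18 and -0.07. With the covariate ACTB changed by -0.20, CYBA by 1.13, FASN by 0.02, FKBP4 by 0.04, IGFBP7 by -0.42, MKI67 by 0.05, PA2G4 by -0.84, PSMB4 by 0.01, RPL14 by 0.02, SCD by 0.05, WIPI1 by 0.19 and ZEB1 by 0.65, and the medians were 0.02 (cell death), 0.20 (microRNA machinery), 0.07 (proteasome) and -0.13 (ribosome biogenesis). When 1 array was left out the cell death median ranged from -0.21 to 0.03, the proteasome median from -0.11 to 0.07, the heat shock median from -0.02 to 0.07 and ZEB1 from -0.17 to 0.02. The causes were not tested.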
